A study of Homo sapiens with 6 samples.

Results

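The genes described here are 42 double-strand break (DSB) signalling and repair genes, measured by RNA-seq in irradiated HCT116 cells with and without the nuclease CAD. They were taken by gene name, as members of a list of damage kinases, chromatin mediators, homologous recombination, end joining and Fanconi genes, and the rule uses no measured value. All 42 were found among the 20020 genes of the count table, and all 42 were among the 12925 genes with enough reads to test. HCT116 cells are an established line from a human colorectal carcinoma. CAD-KO+IR cells carry a CAD knockout made with the lentiCRISPRv2 plasmid, which delivers Cas9 and a guide RNA, and sgVec+IR cells carry the vector without that guide. Both groups were irradiated (8 Gy, with RNA taken after 24 h, as given in the study's text), so no unirradiated library was analysed here and the values show the knockout under irradiation, not the response to irradiation. Each group has 3 libraries from a stable line, and the sources used here do not say whether a line was 1 clone or whether the libraries came from separate cultures. The p-values therefore measure only the spread between these libraries, which may be technical. The comparison asks whether the loss of CAD, a nuclease that cuts DNA itself, went along with other mRNA levels of the genes that sense and mend DSBs.

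A DSB is first bound either by the Ku heterodimer, which leads to end joining, or by the MRE11-RAD50-NBN complex, which activates the kinase ATM and starts the trimming of the ends for homologous recombination. ATM and the related kinase ATR phosphorylate the histone variant H2AX and the checkpoint kinases CHEK1 and CHEK2, and mediators such as MDC1 and TP53BP1 gather on the marked chromatin. Many of these proteins are regulated by phosphorylation, ubiquitination and recruitment to the break, which mRNA levels do not show, and the genes of homologous recombination are transcribed mainly in S and G2 phase.

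The libraries held 14032994 to 19574144 counts in genes, of which the 42 DSB genes took 0.511% to 0.640%. Replicate 2 of CAD-KO+IR and replicate 3 of sgVec+IR stood apart from the others of their group. The remaining libraries of each group correlated at r = 0.993 in log2 CPM (read counts scaled to a common library size) over 12925 genes, whereas CAD-KO+IR replicate 2 correlated at 0.969 and 0.975 with its group and sgVec+IR replicate 3 at 0.890 and 0.886 with its own. Genes without any read numbered 7561 in sgVec+IR replicate 3 and 4577 to 5232 elsewhere. The targeted gene, DFFB, which encodes CAD, had 185, 192 and 217 counts in CAD-KO+IR and 357, 335 and 297 in sgVec+IR. Every CAD-KO+IR library was below every sgVec+IR library, with a log2 fold change of -1.02 ± 0.193 (SE) that did not pass edgeR's quasi-likelihood test after Benjamini-Hochberg adjustment (adjusted p = 0.550) but did pass DESeq2. A knockout by small insertions or deletions need not lower the mRNA, so these counts check the labels by their direction only. All 6 epithelial markers were present (EPCAM, 3381 to 5420 counts), and the leukocyte gene CD3E had 0 counts in every library, which allows up to 0.158 to 0.212 CPM per library by counting error.

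To compare genes with each other, the CPM of each gene was divided by the length of its annotated exons. On this scale the end-joining genes led. XRCC6 and XRCC5, the subunits of the Ku heterodimer, averaged 265 and 142 CPM per kb over the 6 libraries. PRKDC, the catalytic subunit of the kinase DNA-PK that Ku recruits, averaged 99.8, and the histone gene H2AX 64.5. The ranges over the libraries did not overlap between XRCC6 (240 to 285), XRCC5 (121 to 180), PRKDC (92.7 to 112) and H2AX (31.3 to 84.3). FANCI followed with 23.1 CPM per kb (19.7 to 32.5), its highest library above the lowest of H2AX, and overlapped RBBP8 with 18.9 (13.9 to 27.3). Below it the genes formed a dense series in which neighbours overlapped. In all, 5 genes were above 20 CPM per kb, 27 lay from 5 to 20 and 10 were below 5, with a median of 8.42. The length used joins the exons of all annotated transcripts of a gene. It was 23972 bases for ATM and 12809 for FANCC, whose longest transcripts have 13147 and 4592, but equalled the longest transcript for H2AX (1614). Low levels and these counts thus depend on the annotation as well as on abundance.

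The rest of the end-joining group did not share the high level of Ku and DNA-PK. The ligation factors XRCC4 (11.4 CPM per kb), LIG4 (8.46) and NHEJ1 (2.80), the nuclease DCLRE1C (4.22) and the polymerase POLQ of the alternative end-joining route (7.03) lay among the recombination genes. BRCA2, a mediator of homologous recombination, was at 3.81 CPM per kb and BRCA1 at 8.61. The lowest values belonged to RAD51D (1.6), RAD51B (0.875) and RAD50 (0.527). The RAD50 level is uncertain, since 79.7% of its exon bases also belong to the annotated gene ENSG00000283782, which had 0 counts in every library, and reads that fit both genes may not have been counted. Divided by the unshared exons only, RAD50 would be at most at 2.60 CPM per kb. XRCC3 shares 76.7% of its exon bases with KLC1, NHEJ1 65.4% with ENSG00000280537, TP53BP1 28.7% with TUBGCP4, RAD54L 25.1% with LRRC41 and FANCA 23.6% with ZNF276. How strand was treated in the counting is not given in the sources used here, so reads in these stretches cannot be assigned and these 6 levels are uncertain.

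**Figure D1:**
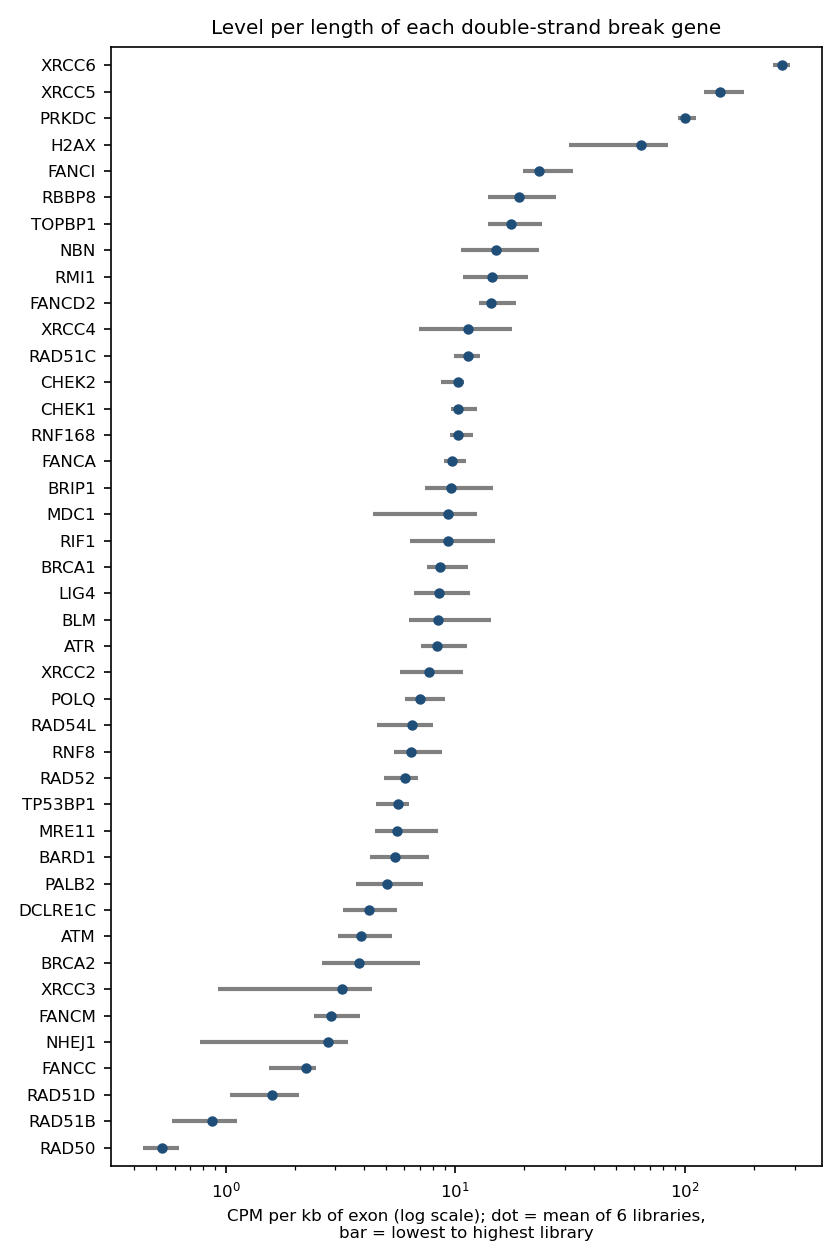
Level of each of the 42 DSB genes in CPM per kb of annotated exon, on a log axis, with the mean of the 6 libraries as a dot and the lowest to highest library as a bar. XRCC6, XRCC5, PRKDC and H2AX have the 4 highest means, from 265 to 64.5 CPM per kb, and RAD50 is lowest at 0.527.

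None of the 42 DSB genes passed the test between CAD-KO+IR and sgVec+IR. By edgeR's quasi-likelihood test, 0 of 42 reached both a Benjamini-Hochberg adjusted p under 0.05 and a 1.5-fold change, the thresholds for a call, against 4 of all 12925 genes tested (0.0309%). At an unadjusted p under 0.05 the count was again 0 of 42, against 368 of all genes (2.85%), and DESeq2 called 0 of 42, against 0.245% of its 16728 genes. With DESeq2, 0 of 42 also had an unadjusted p under 0.05 (2.78% of all genes). The fold changes lay on both sides of 0, with 22 genes higher and 20 lower in the knockout, against 6214 and 6711 of all genes tested. Their median was 0.01 on the log2 scale beside -0.01 over all genes tested. They ran from -0.31 for BLM to 0.53 for XRCC4. In bulk RNA, fewer cells expressing a gene and less RNA of it per cell cannot be told apart, which holds for every value here.

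The size of a change that these libraries could have missed differs between the genes. The 95% intervals of 36 of the 42 genes lay inside a 2-fold change in either direction, and those of 11 genes lay inside a 1.5-fold change. Those 11 are CHEK1, CHEK2, RNF168, TP53BP1, RAD51C, RAD52, XRCC5, XRCC6, PRKDC, FANCA and FANCD2. The narrowest interval was that of XRCC6 (-0.14 to 0.40 on the log2 scale) and the widest that of XRCC3 (-1.28 to 1.44). The plot of fold changes with their intervals shows that every interval crossed 0.

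**Figure D2:**
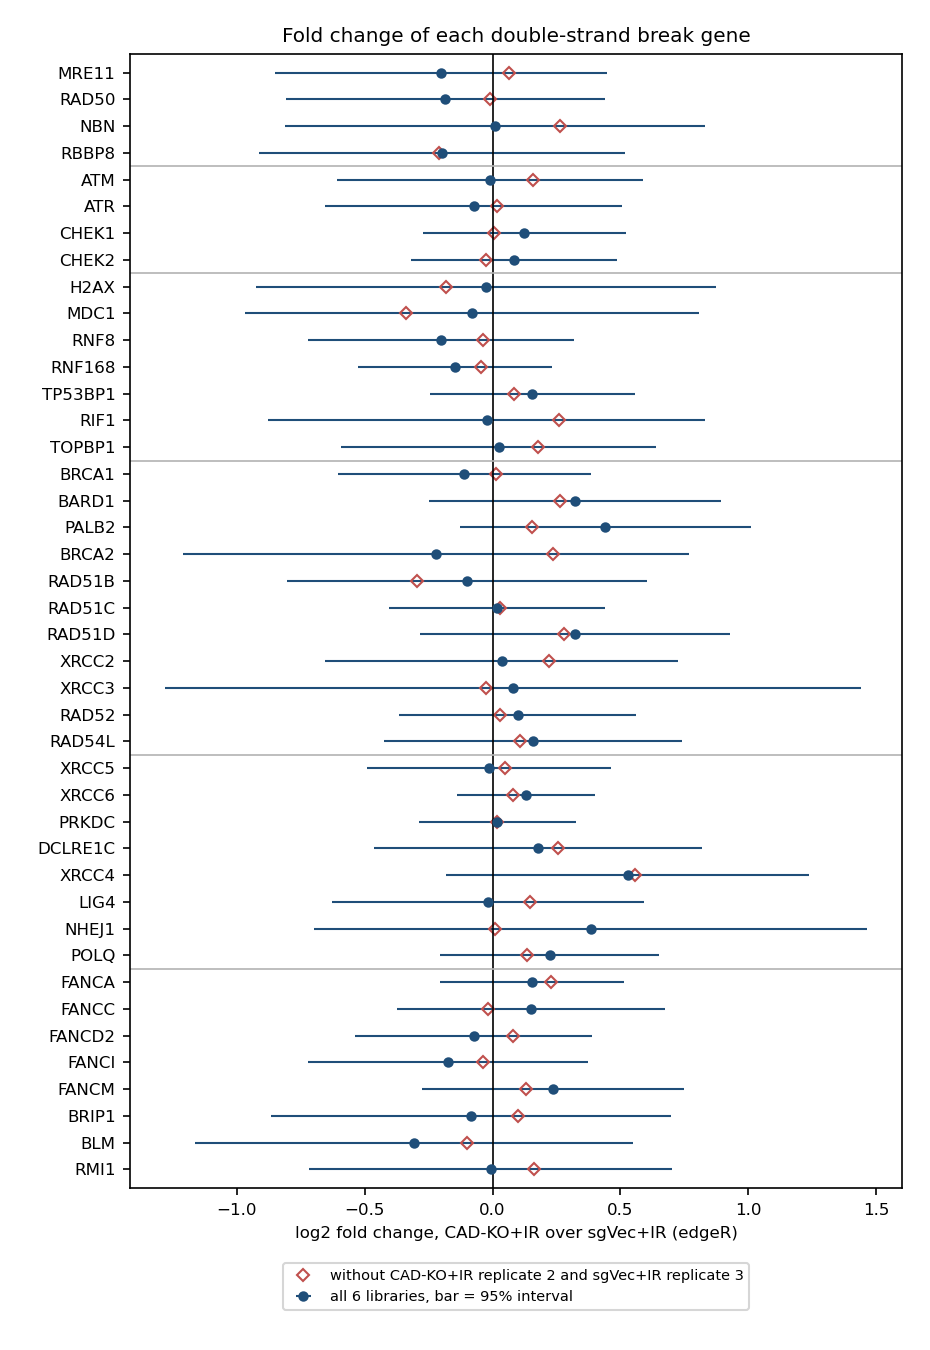
Log2 fold change of CAD-KO+IR over sgVec+IR for each DSB gene from edgeR, with dots and 95% intervals for all 6 libraries and open diamonds for the fit without CAD-KO+IR replicate 2 and sgVec+IR replicate 3; grey lines part the functional groups. All 42 intervals cross 0, and XRCC4 keeps a value near 0.53 in both fits.

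Among the break sensors, MRE11 (log2 fold change -0.20), RAD50 (-0.18) and NBN (0.01), which form the complex that holds broken ends, and RBBP8 (-0.20), the cofactor that starts end resection, had a group median of -0.19, and 1 of the 4 was above 0. RAD50 had 5.85, 4.27 and 4.33 CPM in CAD-KO+IR and 5.44, 4.86 and 6.14 CPM in sgVec+IR, and the groups overlapped. NBN had 74.2, 118 and 87.2 CPM in CAD-KO+IR and 69.4, 65.2 and 143 CPM in sgVec+IR. The sgVec+IR replicates 1 and 2 were below all CAD-KO+IR libraries and replicate 3 was above all of them, so that the group means of 93.0 ± 22.3 and 92.4 ± 43.6 CPM (SD, n = 3) hide a wide spread. RBBP8 had 70.8, 123 and 75.1 CPM in CAD-KO+IR and 84.5, 84.8 and 139 CPM in sgVec+IR, again with replicate 2 of the first group and replicate 3 of the second far above the rest.

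None of the 4 damage kinases passed the test. ATM, the apical kinase for DSBs, had a log2 fold change of -0.01 (95% interval -0.61 to 0.59), and ATR, which answers single-stranded DNA, of -0.07. The checkpoint kinases CHEK1 and CHEK2 had log2 fold changes of 0.12 and 0.08, and their intervals were among the narrowest. CHEK1 was at 62.7, 81.1 and 67.2 CPM in CAD-KO+IR and at 66.1, 63.5 and 64.0 CPM in sgVec+IR.

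The chromatin mediators had a median log2 fold change of -0.03, with 2 of 7 above 0. H2AX, whose phosphorylated form marks the chromatin around a break, had 117, 77.2 and 115 CPM in CAD-KO+IR and 136, 128 and 50.6 CPM in sgVec+IR (log2 fold change -0.03 ± 0.380, SE). MDC1, the reader of that mark, had 80.4, 64.6 and 73.9 CPM in CAD-KO+IR and 96.02, 99.9 and 35.3 CPM in sgVec+IR (-0.08 ± 0.375). For both, sgVec+IR replicates 1 and 2 were above every CAD-KO+IR library and replicate 3 was below every CAD-KO+IR library. RIF1, which acts with TP53BP1 to hold back resection, showed the mirror image, with 138, 214 and 150 CPM in CAD-KO+IR and 126, 115 and 269 CPM in sgVec+IR. TP53BP1 (0.16), the ATR activator TOPBP1 (0.02) and the ubiquitin ligase RNF8 (-0.20) did not pass the test either.

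RNF168, the ubiquitin ligase that prepares chromatin for TP53BP1, was the single gene with all CAD-KO+IR libraries below all sgVec+IR libraries. It had 51.9, 50.7 and 53.866 CPM in CAD-KO+IR and 55.5, 53.872 and 63.9 CPM in sgVec+IR. The groups were thus parted by less than a hundredth of a CPM, and the log2 fold change of -0.15 ± 0.160 (SE) did not pass the test. With relative log expression (RLE) normalization in place of TMM the groups overlapped.

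In homologous recombination, 8 of 11 genes were above 0, with a median log2 fold change of 0.08. PALB2, which links BRCA1 to BRCA2, had the lowest unadjusted p of the 42 genes in edgeR's quasi-likelihood test (log2 fold change 0.44 ± 0.241, SE, adjusted p = 0.9999). Its CPM were 23.1, 34.5 and 24.9 in CAD-KO+IR and 24.4, 18.7 and 17.6 in sgVec+IR, and the groups overlapped. BARD1, the partner of BRCA1 in a ubiquitin ligase, and RAD51D both had log2 fold changes of 0.32, and neither passed the test. BRCA1 was at -0.11 and BRCA2 at -0.22, where sgVec+IR replicate 3 held 86.4 CPM of BRCA2 against 32.2 and 32.5 in the other sgVec+IR libraries and 37.0 to 53.5 in CAD-KO+IR. RAD51B, RAD51C, XRCC2 and XRCC3, which act together in complexes of homologous recombination, were at -0.10, 0.02, 0.04 and 0.08. RAD52, an annealing factor, was at 0.10 and RAD54L, a motor that drives strand invasion, at 0.16.

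End joining had the highest group median, 0.16, with 6 of 8 genes above 0. XRCC4, the scaffold of DNA ligase IV, was at 29.1, 47.3 and 31.3 CPM in CAD-KO+IR and at 18.6, 22.8 and 33.6 CPM in sgVec+IR. Its means were 35.9 ± 9.95 and 25 ± 7.73 CPM (SD, n = 3). Only sgVec+IR replicate 3 reached into the CAD-KO+IR range. The log2 fold change of 0.53 ± 0.30 (SE) was the highest of the 42 genes and did not pass edgeR's quasi-likelihood test (adjusted p = 0.9999). It was 0.80 without sgVec+IR replicate 3 and between 0.28 and 0.80 when any single library was left out.

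XRCC6 was the single gene with all CAD-KO+IR libraries above all sgVec+IR libraries, at 896, 937 and 895 against 870, 830 and 791 CPM. The difference was small, with a log2 fold change of 0.13 ± 0.114 (SE), and did not pass the test. XRCC6 and RNF168 together are 2 of 42 genes (4.76%) without overlap between the groups, against 10.2% of all genes tested, so this count was not above the background. The partners XRCC5 (-0.01) and PRKDC (0.02) were close to 0, as was LIG4 (-0.02). DCLRE1C, the nuclease Artemis that opens hairpin ends, was at 0.18 and POLQ at 0.22. NHEJ1, which bridges ends beside XRCC4, was at 0.38 with a single low library, sgVec+IR replicate 3, where it had 34 counts (2.40 CPM) against 9.44 to 10.6 CPM in the other 5 libraries. Without that library the NHEJ1 value was -0.03.

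**Figure D3:**
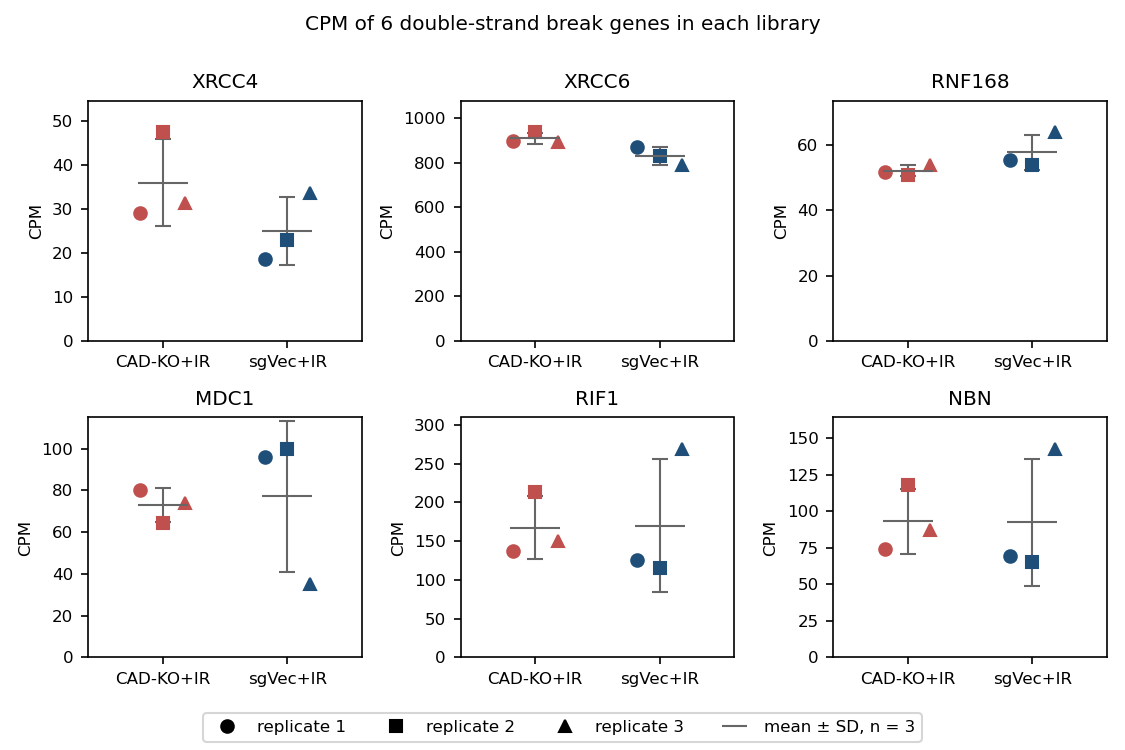
CPM of 6 DSB genes in the 3 CAD-KO+IR and the 3 sgVec+IR libraries, with the mean and SD of each group and axes that start at 0. XRCC6 and RNF168 do not overlap between the groups; for XRCC4, MDC1, RIF1 and NBN, sgVec+IR replicate 3 lies far from sgVec+IR replicates 1 and 2.

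The Fanconi and dissolution genes had a median of -0.04, with 3 of 8 above 0. FANCA and FANCC of the core complex were both at 0.15, and FANCD2 and FANCI, the clamp that the complex ubiquitinates, were at -0.07 and -0.17. FANCM, the translocase that anchors the core complex on DNA, was at 0.24, and the helicase BRIP1 at -0.08. BLM and RMI1, which take apart joined DNA molecules after strand exchange, were at -0.31 and -0.01. BLM had 41.8, 66.0 and 41.9 CPM in CAD-KO+IR and 45.7, 44.2 and 95.7 CPM in sgVec+IR. Each group thus held a high library, the higher being sgVec+IR replicate 3. The remaining libraries of BLM averaged 41.8 CPM in CAD-KO+IR and 44.9 CPM in sgVec+IR.

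Much of the spread within sgVec+IR lay between replicate 3 and replicates 1 and 2. Over the 42 genes, sgVec+IR replicates 1 and 2 differed by a median of 5.07%, and by less than 10% for 35 genes. With replicate 3 included, the coefficient of variation in sgVec+IR had a median of 24.03% and reached 62.0% for BRCA2, and in CAD-KO+IR it had a median of 16.6%. Of the 42 genes, 21 had their highest and 12 their lowest value of all libraries in sgVec+IR replicate 3 (50% and 28.6%, against 33.9% and 41.6% of all genes tested).

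**Figure D4:**
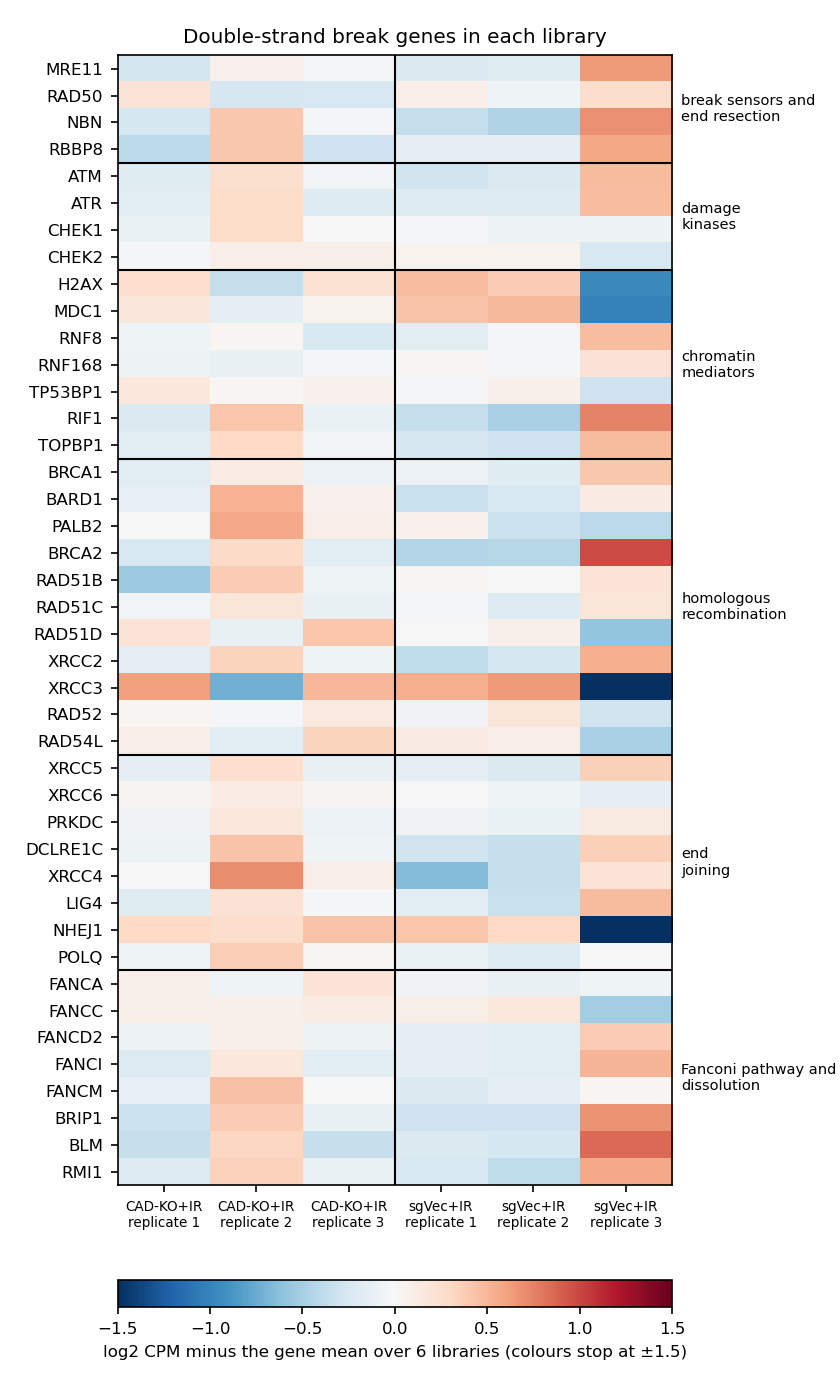
Log2 CPM of each DSB gene in each library minus the mean of that gene over the 6 libraries, ordered by function, with red above and blue below the mean and colours that stop at ±1.5. The columns of CAD-KO+IR replicate 2 and sgVec+IR replicate 3 carry most of the colour, red for most genes and blue for H2AX, MDC1 and XRCC3.

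The direction of these deviations followed base composition. The difference between sgVec+IR replicate 3 and the mean of replicates 1 and 2 correlated with the GC content of a gene's longest transcript at r = -0.818 (Spearman's rho -0.815) over the 42 genes, and at r = -0.619 over 12913 genes. For CAD-KO+IR replicate 2 against replicates 1 and 3, r was -0.839 (rho -0.768) over the 42 genes and -0.767 over 12913 genes. These are correlations across genes of the same libraries, and genes are not independent replicates. BRCA2 (36.3% GC) was higher by 1.41 on the log2 scale in sgVec+IR replicate 3, RIF1 (37.3%) by 1.16 and BLM (41.2%) by 1.09. H2AX (66.4% GC) differed by -1.38 there, XRCC3 (62.5%) by -2.16 and MDC1 (53.3%) by -1.47. FANCA, with 55.4% GC, was off this trend at 0.02. Across the 42 genes the deviations of both libraries correlated at r = 0.803 with each other. AT-rich genes thus ran high and GC-rich genes low in 1 library of each group. The part of GC content in the fold changes was tested only by the corrected fit given next.

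**Figure D5:**
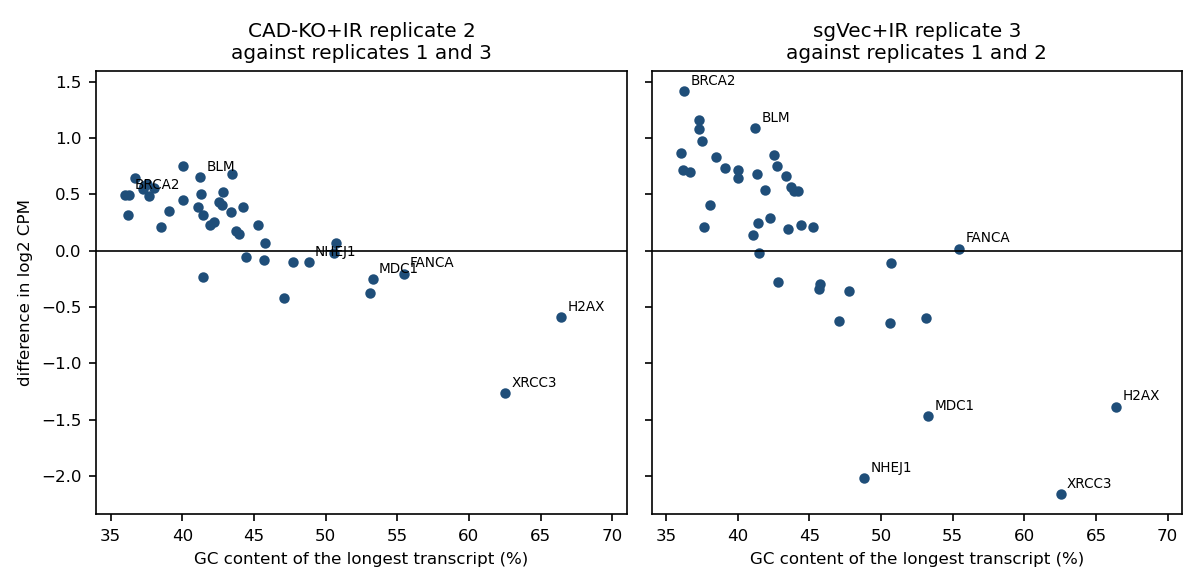
Difference in log2 CPM between the library that stood apart and the mean of the other libraries of its group, against the GC content of the longest transcript, for the 42 DSB genes (left, CAD-KO+IR replicate 2; right, sgVec+IR replicate 3). In both panels the difference falls from AT-rich genes such as BRCA2 to GC-rich genes such as XRCC3 and H2AX.

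A trend on GC content was then removed from each library before the fit, a step chosen after seeing the data. The median of the 42 genes became 0.05, and 0 of 42 were called, against 0.317% of all genes. XRCC4 was the single gene with an unadjusted p under 0.05 (1 of 42, against 10.5% of all genes), with a log2 fold change of 0.54 ± 0.139 (SE) and an adjusted p of 0.257 in edgeR's quasi-likelihood test.

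Both libraries that stood apart were also left out together, which compared CAD-KO+IR replicates 1 and 3 with sgVec+IR replicates 1 and 2 and was likewise chosen after seeing the data. In this comparison 0 of 42 genes reached the threshold with its fold change of 1.5, against 3.37% of all genes. At an adjusted p under 0.05 alone, 6 of 42 genes passed (14.3%), against 16.2% of all genes, so the DSB genes were not above the background. The differences that passed were all below 1.5-fold. Of the 42 genes, 30 lay above 0, against 6478 of all 13059 genes tested in this fit. The median was 0.07 on the log2 scale beside -0.0022 over all genes. All 8 end-joining genes were above 0, from 0.01 to 0.56 with a median of 0.11, and 1 of the 8 passed at an adjusted p under 0.05.

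The 6 genes that passed belong to several functions. XRCC4 was higher, at 29.1 and 31.3 CPM against 18.6 and 22.8 (log2 fold change 0.56 ± 0.113, SE, adjusted p = 0.000307 in edgeR's quasi-likelihood test). RIF1 was higher by 0.26 (adjusted p = 0.00451 in edgeR), at 138 and 150 against 126 and 115 CPM. NBN was higher by 0.27 (adjusted p = 0.0153 in edgeR) and FANCA by 0.23 (adjusted p = 0.0198 in edgeR). FANCA shares 23.6% of its exon bases with ZNF276, which had 551 and 514 counts in CAD-KO+IR and 394 and 392 in sgVec+IR. Reads in the shared stretch cannot be assigned, which limits the FANCA value too. MDC1 was lower, at 80.4 and 73.9 against 96.02 and 99.9 CPM (log2 fold change -0.34 ± 0.0726, SE, adjusted p = 0.000613 in edgeR's quasi-likelihood test). RBBP8 was lower as well, with a log2 fold change of -0.21 (adjusted p = 0.0432 in edgeR). For NBN and RIF1 these differences depend on which libraries are read, since with all 6 libraries their log2 fold changes were 0.01 and -0.02. The same holds for MDC1 and RBBP8, at -0.08 and -0.20 with all 6 libraries. Leaving out single libraries took MDC1 from -0.42 to 0.15 and RBBP8 from -0.50 to 0.084. XRCC4 and FANCA stayed above 0 in those fits, at 0.28 to 0.80 and 0.093 to 0.22.

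At an unadjusted p under 0.05, 14 of 42 genes passed without both libraries (33.3%), against 29.7% of all genes. Of these, 11 were higher and 3 lower, where all genes split into 14.6% higher and 15.1% lower. The 11 are NBN, ATM, RIF1, TOPBP1, BARD1, BRCA2, RAD51D, XRCC2, DCLRE1C, XRCC4 and FANCA, and the 3 are RBBP8, H2AX and MDC1. Without overlap between these 4 libraries were 22 genes (52.4%), 16 higher and 6 lower, against 57.4% of all genes (28.6% higher and 28.8% lower). Whether the excess of higher over lower genes is particular to the DSB genes was not tested.

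A fit with all 6 libraries that gave less weight to those that fitted poorly, limma-voom with sample quality weights, was run as well. The weights were 0.154 for CAD-KO+IR replicate 2 and 0.0404 for sgVec+IR replicate 3, and 1.79 to 6.75 for the other libraries. At an adjusted p under 0.05 it passed 9 of 42 genes (21.4%), against 22.3% of all genes, 8 higher and 1 lower, against 10.5% and 11.8% of all genes. These 9 are NBN, RIF1, TOPBP1, BARD1, RAD51D, DCLRE1C, XRCC4 and FANCA, which were higher, and MDC1, which was lower. At an unadjusted p under 0.05 the fit passed 16 of 42, against 37.1% of all genes. XRCC4 was also past the 1.5-fold threshold (log2 fold change 0.60 ± 0.105, SE, adjusted p = 0.00283 in limma-voom), as 1 of 42 genes against 5.15% of all genes. Leaving out sgVec+IR replicate 3 alone gave 0 calls among the 42 genes (0.167% of all genes) and 3 genes with an unadjusted p under 0.05, XRCC4 and RIF1 higher and MDC1 lower, against 11.9% of all genes. The median was then 0.13, and 21 of the 42 genes had the opposite sign to the fit with all 6 libraries.

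Other genes of the same pathways, on a list of 58 that also holds the 9-1-1 clamp, the shieldin and BRCA1-A complexes, replication protein A, the remaining Fanconi genes and the structure-specific nucleases, were read from the same fit. Of the 57 tested, 31 lay above 0 and 26 below, and their median was 0.0046 on the log2 scale. None was called or had an unadjusted p under 0.05 in edgeR, and DESeq2 called none and had none with an unadjusted p under 0.05. The lowest p belonged to CLSPN, the claspin adaptor that lets ATR activate CHEK1, named here after its value was seen. It had 76.2, 86.3 and 87.6 CPM in CAD-KO+IR and 65.8, 55.0 and 71.6 CPM in sgVec+IR, with no overlap (log2 fold change 0.38, unadjusted p = 0.0644 in edgeR's quasi-likelihood test). Without the libraries that stood apart, 3 of the 57 were higher (5.26%) and 2 lower (3.51%) at an adjusted p under 0.05 in edgeR, against 7.99% and 8.25% of all genes. CLSPN at 0.44 had the lowest (adjusted p = 0.000100 in edgeR). Of the cell-cycle lists, 7 of 16 S phase genes and 10 of 16 G2/M genes were above 0 with all 6 libraries, with medians of -0.04 and 0.03, and none was called or had an unadjusted p under 0.05. Without the libraries that stood apart, 2 of 16 S phase genes and 1 of 16 G2/M genes were lower and none was higher at an adjusted p under 0.05 in edgeR. Their part in the values of the DSB genes was not tested.

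The stretches just upstream of the genes were read for motifs. RefSeq start sites on GRCh38.p14 gave a window of 250 bases for 38 of the 42 genes, the first listed being used where a gene has several. For 6 of the 38 that start lies over 1000 bases inside the gene as GENCODE release 29 places it. A CCAAT box (CCAAT) was in 19 of 38 windows (50%), against 35.1% of the windows of 10484 tested genes. An ETS motif (CCGGAAG) was in 36.8% against 15.6%, the CHR element (TTTGAA) in 18.4% against 8.33%, a CREB motif (TGACGT) in 15.8% against 10.1% and an E2F motif (TTCCCGC) in 13.2% against 8.88%. A GC box (GGGCGG) was in 65.8% against 67.8%, and an NRF1 motif in 10.5% against 10.2%. Both strands were searched. These shares were not tested, and a match does not show that a factor binds.

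RIF1, FANCA and RBBP8, which passed at an adjusted p under 0.05 without the libraries that stood apart, have at least 100 bases of that window outside any annotated exon, and their stretches are printed to show how differently such windows are built. The sequences run 5′ to 3′ along the strand of the gene, with capitals for the motifs named above on either strand. They lie at chr2:151409652-151409882 (RIF1, forward strand), chr16:89816658-89816897 (FANCA, reverse strand) and chr18:22933078-22933314 (RBBP8, forward strand) of GRCh38.p14 and are from RefSeq. The RIF1 and FANCA stretches lie just before the gene as GENCODE places it, whereas the RBBP8 stretch belongs to an internal start, 135 kb inside the GENCODE gene.
RIF1: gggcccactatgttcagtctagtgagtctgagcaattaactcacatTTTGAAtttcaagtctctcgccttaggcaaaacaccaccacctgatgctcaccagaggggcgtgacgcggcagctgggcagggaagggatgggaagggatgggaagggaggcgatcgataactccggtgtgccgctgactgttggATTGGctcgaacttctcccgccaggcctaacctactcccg
FANCA: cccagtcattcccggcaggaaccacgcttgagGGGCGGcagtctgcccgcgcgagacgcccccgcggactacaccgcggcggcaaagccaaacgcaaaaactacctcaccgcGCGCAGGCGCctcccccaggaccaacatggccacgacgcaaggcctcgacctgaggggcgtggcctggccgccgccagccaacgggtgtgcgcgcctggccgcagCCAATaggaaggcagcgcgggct
RBBP8: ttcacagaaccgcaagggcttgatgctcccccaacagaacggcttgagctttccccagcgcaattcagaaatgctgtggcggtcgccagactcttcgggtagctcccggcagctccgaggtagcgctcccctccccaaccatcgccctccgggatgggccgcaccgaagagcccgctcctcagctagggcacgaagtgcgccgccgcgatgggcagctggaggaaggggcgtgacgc
The RIF1 stretch (56.3% GC) holds a CHR element and a reversed CCAAT box, the FANCA stretch (71.2% GC) a GC box, an NRF1 motif and a CCAAT box, and the RBBP8 stretch (65.8% GC) none of the 7 motifs.

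Many of the genes start beside a gene on the other strand. For 13 of 38 (34.2%) a gene of the count table starts on the opposite strand within 500 bases upstream or 100 bases downstream, against 13.2% of the tested genes. Distances are between RefSeq start sites. The closest are LIG4 and ABHD13, 43 bases apart, TOPBP1 and TF, 57 bases, and BRCA1 and NBR1, 82 bases. The BRCA1 start used is the first of 2 listed and lies upstream of the gene as GENCODE places it. The other BRCA1 start was not read for partners, so the pair with NBR1 holds for that first start only. XRCC4, at chr5:83077498-83353787 on the forward strand of GRCh38 in GENCODE release 29, has a RefSeq start 153 bases from that of TMEM167A. In GENCODE the spans of the pair overlap, TMEM167A lying at chr5:83052846-83077863 on the reverse strand. Of the exon bases of XRCC4, however, 0% also belong to another annotated gene. TMEM167A had 152, 211 and 156 CPM in CAD-KO+IR and 128, 131 and 288 CPM in sgVec+IR, with a log2 fold change of -0.07 ± 0.346 (SE) with all 6 libraries and of 0.26 ± 0.0640 without the libraries that stood apart (adjusted p = 0.00346 in edgeR's quasi-likelihood test). Both genes of this arrangement were thus above 0 in the 4 libraries, XRCC4 by more on the log2 scale, and the difference between them was not tested.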

How the data were processed

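RNA-seq of 3 CAD-KO+IR and 3 sgVec+IR libraries of HCT116 cells was used. The authors cleaned the reads with fastp, counted them per gene with featureCounts and deposited raw read counts, 1 column per library, matched here by sample title. The labels list a mouse genome build and genomic DNA as the molecule, whereas the identifiers are human Ensembl genes and the protocol describes RNA. The aligner is not given in the sources used here. Authors' filters on reads are part of the counts and could change them.

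Genes were kept by filterByExpr in edgeR (minimum count 10, minimum total count 15) with library sizes adjusted by TMM. The groups were compared over 12925 genes by the quasi-likelihood test of edgeR 4.0.16 in R 4.3.3, with Benjamini-Hochberg adjustment. CPM are counts scaled to the adjusted library size. Alternatives used DESeq2 1.42.0, limma-voom (limma 3.58.1) with sample weights, other scalings and filters, a replicate block and single libraries left out. The GC correction (lowess, span 0.3) and the removal of 2 libraries together were chosen after seeing the data. Of the 20020 identifiers, 19823 matched GENCODE release 29, which gave lengths, GC content and positions. Library totals were 14032994 to 19574144 counts, and limits for 0 counts (3 counts) cover counting error only.

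The 42 genes and the other lists were chosen with earlier results of these data known. DFFB and every DSB gene are named, with values per library for those without overlap between groups, those called in an alternative and the most and least abundant per length. Other genes with values per library were chosen after their values were seen. The scripts were tested on simulated data.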

Additional observations from a re-analysis of the deposited data

How the results depend on the processing

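No DSB gene was called in 14 of the 15 alternative fits, and XRCC4 was called in the remaining fit. Its log2 fold change stayed above 0 in all 15, as did the signs of 11 other DSB genes. A limit of these data is the wide spread that came with CAD-KO+IR replicate 2 and sgVec+IR replicate 3. Which of the fits is nearest to the cells was not tested. In the fits below, causes were not tested beyond the libraries left out.

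Against 4 calls over all genes (1 higher, 3 lower), DESeq2 gave 41 (20 higher, 21 lower), limma-voom with sample weights 666 (212 and 454), the GC correction 41 (20 and 21), both libraries left out 440 (139 and 301) and an unadjusted p under 0.05 with a 1.5-fold change 282. Leaving out single libraries gave 0 to 22 (0 to 11 higher, 0 to 11 lower), with 22 only without sgVec+IR replicate 3. Deviations of same-numbered libraries correlated at 0.468, -0.545 and -0.379 for numbers 1 to 3. The libraries that stood apart have different numbers and weigh on all these values. The correlations therefore cannot show whether the numbers pair the samples, which were treated as unpaired. With the replicate number as a block, edgeR called 0 of all genes, with 146 at an unadjusted p under 0.05, and 0 DSB genes.

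limma-voom called 1 of 42 DSB genes and 2 of 57 other DSB genes, against 5.15% of all genes. The latter were SHLD1, lower, and RTEL1, higher, both chosen after their values were seen. Both had few reads. Mean CPM in CAD-KO+IR and sgVec+IR were 0.743 and 1.25 for SHLD1 and 1.85 and 0.953 for RTEL1. DSB genes with an unadjusted p under 0.05 numbered 16 in limma-voom, 14 with both libraries left out, 1 with the GC correction and 0 to 3 without single libraries, with 3 only without sgVec+IR replicate 3. DSB genes without overlap numbered 1 with RLE normalization (2.38%, against 10.3% of all genes), 22 with both libraries left out and 3 to 17 without single libraries, with 17 (40.5%, against 45.8% of all genes) without sgVec+IR replicate 3 and 3 to 7 (7.14% to 16.7%, against 13% to 20.1%) without any other. DFFB passed at log2 fold changes of -1.01 in DESeq2, -0.92 in limma-voom and -0.996 with both libraries left out.

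Some log2 fold changes changed sign. In limma-voom these were MRE11 (0.12), ATM (0.19), ATR (0.0049), RIF1 (0.29), BRCA1 (0.028), BRCA2 (0.25), XRCC3 (-0.074), XRCC5 (0.058), LIG4 (0.18), FANCC (-0.014), FANCD2 (0.076), BRIP1 (0.16) and RMI1 (0.19). With both libraries left out they were MRE11 (0.064), ATM (0.16), ATR (0.016), CHEK2 (-0.025), RIF1 (0.26), BRCA1 (0.015), BRCA2 (0.24), XRCC3 (-0.025), XRCC5 (0.049), LIG4 (0.15), FANCC (-0.018), FANCD2 (0.079), BRIP1 (0.098) and RMI1 (0.16). Library size normalization turned NBN (-0.020), TOPBP1 (-0.0060), RAD51C (-0.011) and PRKDC (-0.0096), and no filter turned ATM (0.0021) and RMI1 (0.0044). The replicate block turned ATM (0.022), H2AX (0.062), MDC1 (0.039), RIF1 (0.060), LIG4 (0.0098) and RMI1 (0.030). The GC correction turned ATM (0.031), H2AX (0.014), RIF1 (0.065), LIG4 (0.024) and RMI1 (0.046).

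Without single libraries, 30 genes crossed 0. Their ranges were MRE11 (-0.35 to 0.13), NBN (-0.20 to 0.47), RBBP8 (-0.50 to 0.084), ATM (-0.15 to 0.28), ATR (-0.24 to 0.18), CHEK2 (-0.0061 to 0.14), H2AX (-0.36 to 0.21), MDC1 (-0.42 to 0.15), RNF8 (-0.32 to 0.02), RIF1 (-0.24 to 0.47), TOPBP1 (-0.13 to 0.32), BRCA1 (-0.21 to 0.10), BRCA2 (-0.46 to 0.42), RAD51B (-0.36 to 0.12) and RAD51C (-0.076 to 0.12). The others were XRCC2 (-0.13 to 0.38), XRCC3 (-0.35 to 0.40), RAD52 (-0.0098 to 0.23), RAD54L (-0.012 to 0.28), XRCC5 (-0.16 to 0.19), PRKDC (-0.064 to 0.10), DCLRE1C (-0.01 to 0.44), LIG4 (-0.16 to 0.26), NHEJ1 (-0.026 to 0.71), FANCC (-0.030 to 0.28), FANCD2 (-0.16 to 0.13), FANCI (-0.30 to 0.083), BRIP1 (-0.31 to 0.32), BLM (-0.57 to 0.15) and RMI1 (-0.19 to 0.34).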

Other observations

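XRCC4 lies in a stretch of chromosome 5 whose next tested gene downstream, VCAN, was looked at after its value was seen. VCAN encodes a large matrix proteoglycan and had 271, 350 and 281 CPM in CAD-KO+IR and 160, 152 and 183 CPM in sgVec+IR. Every CAD-KO+IR library was above every sgVec+IR library, with a log2 fold change of 0.87 ± 0.167 (SE), which passed DESeq2 (adjusted p = 0.00898) and not edgeR's quasi-likelihood test (adjusted p = 0.550). On the side of TMEM167A, RPS23, ATG10, SSBP2 and ZCCHC9 had log2 fold changes of -0.19, -0.52, 0.82 and -0.13, SSBP2 at no more than 1.42 CPM in any library. Beyond VCAN, those of COX7C, RASA1, CCNH and TMEM161B were -0.25, 0.10, -0.11 and -0.00034. None of these 8 passed edgeR's test with all 6 libraries. Without CAD-KO+IR replicate 2 and sgVec+IR replicate 3, RASA1 (0.31, adjusted p = 0.0153 in edgeR) and TMEM161B (0.34, adjusted p = 0.0122 in edgeR) passed at an adjusted p under 0.05, as did VCAN (0.83), TMEM167A and XRCC4, and the other 6 did not. Whether XRCC4 and VCAN vary together for a reason of position was not tested.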
